A study of Mus musculus with 11 samples.

Results

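C-type lectin receptors are surface proteins by which macrophages sense carbohydrates and lipids of fungi, bacteria and dying cells. The 10 genes described here, Clec4e, Clec4d, Clec4n, Clec4a1, Clec4a2, Clec4a3, Clec2d, Clec7a, Clec12a and Clec5a, were taken by symbol from a table of 55487 gene IDs, and each was found on 1 gene ID. They were measured by RNA sequencing of bone marrow-derived macrophages, cells grown from the marrow of C57BL/6J mice aged 2 to 5 months over 5 to 6 days in medium with serum and CMG-conditioned medium. The 7 control libraries (0 µg/ml) and the 4 libraries of cells given 0.5 µg/ml CYR61 had the same strain, media and 24 h incubation. CYR61, also named CCN1, is a secreted matricellular protein that binds integrins. No label states a vehicle for the controls or ties a library to its own mouse or culture. The spread behind each p-value is therefore that of the libraries at hand and may be technical.

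These receptors fall into groups by how they signal. Clec4e (Mincle, which binds mycobacterial cord factor), Clec4d (MCL, its heterodimer partner) and Clec4n (Dectin-2, which binds fungal mannans) carry no signalling motif of their own and use the Fc receptor gamma chain encoded by Fcer1g, which recruits the kinase Syk and then the adaptor Card9. Clec7a (Dectin-1, the receptor for beta-glucans) has its own tyrosine motif that recruits Syk, and Clec5a (MDL-1) couples to the adaptor DAP12, the product of Tyrobp. Clec12a and Clec4a2 (DCIR) are inhibitory receptors that bind phosphatases such as SHP-1, the product of Ptpn6, and Clec4a1 and Clec4a3 are close relatives of Clec4a2. Clec2d is a cell surface ligand of the natural killer receptor encoded by Klrb1b.

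All 10 genes lie on mouse chromosome 6 in the GENCODE M21 annotation (GRCm38). In one cluster the order of coding genes is Clec4a1, Clec4a3, Clec4a4, Clec4b1, Clec4a2, Clec4b2, Clec4n, Clec4d and Clec4e, with Clec4e on the reverse strand and the others on the forward strand. Clec2d, Clec12a and Clec7a lie in the natural killer gene complex, and Clec5a lies apart. To let the start regions of genes that behaved differently be set side by side, the 250 bases before the annotated start are printed for Clec4e (chr6:123289872-123290121, reverse strand), its neighbour Clec4d (chr6:123261857-123262106, forward strand), Clec2d (chr6:129180365-129180614, forward strand) and Clec7a (chr6:129472786-129473035, reverse strand; the start of its 2 that lies farther upstream). The sequences are from RefSeq on GRCm38.p6, run 5′ to 3′ towards the gene, and have motif matches in capitals.
Clec4e: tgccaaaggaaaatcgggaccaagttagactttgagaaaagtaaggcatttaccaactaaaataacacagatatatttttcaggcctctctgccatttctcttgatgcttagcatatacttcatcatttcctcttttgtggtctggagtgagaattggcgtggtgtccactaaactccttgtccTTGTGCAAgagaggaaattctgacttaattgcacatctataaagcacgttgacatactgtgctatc
Clec4d: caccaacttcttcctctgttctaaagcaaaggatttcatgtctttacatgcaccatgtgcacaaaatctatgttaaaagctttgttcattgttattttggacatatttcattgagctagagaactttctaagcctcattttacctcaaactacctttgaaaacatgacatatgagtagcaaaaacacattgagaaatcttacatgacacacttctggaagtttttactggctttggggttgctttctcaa
Clec2d: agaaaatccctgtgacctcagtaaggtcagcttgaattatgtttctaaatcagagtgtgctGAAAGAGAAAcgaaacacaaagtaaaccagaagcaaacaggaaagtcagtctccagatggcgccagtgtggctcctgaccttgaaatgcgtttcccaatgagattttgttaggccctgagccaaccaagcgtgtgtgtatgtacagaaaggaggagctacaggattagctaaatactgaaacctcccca
Clec7a: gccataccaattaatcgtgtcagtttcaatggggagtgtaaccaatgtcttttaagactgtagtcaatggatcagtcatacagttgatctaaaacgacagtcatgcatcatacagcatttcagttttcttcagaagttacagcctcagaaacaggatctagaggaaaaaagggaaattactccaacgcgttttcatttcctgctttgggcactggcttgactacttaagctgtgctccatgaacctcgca
RefSeq entries matched 9 of the 10 genes, all but Clec4n. Both strands were searched for 6 motifs: C/EBP (TTNNGCAA), AP-1 (TGANTCA), the interferon-gamma activated site (TTCNNNGAA), the core of the interferon-stimulated response element, PU.1 (AGGAAGT) and the NF-kB consensus. Among the sequences shown, Clec4e had the C/EBP letters TTGTGCAA beginning 66 bases before the start, and Clec2d had the response element letters GAAAGAGAAA beginning 189 bases before it. Of 32536 start regions of the same length, 9.57% held the C/EBP letters and 2.98% those of the response element. Clec4d and Clec7a held none of the 6. In the start regions not printed, Clec12a had the C/EBP letters 140 bases and AP-1 letters 213 bases before the start. Clec4a2 had the interferon-gamma site letters 42 bases before its start. The RefSeq start regions of these 2 genes lie inside the genes as GENCODE M21 places them. That of Clec12a is chr6:129349994-129350243, in a gene that begins at 129342691. That of Clec4a2 is chr6:123122440-123122689, in a gene that begins at 123106428. Of the 32536 start regions, 6.73% held the AP-1 letters and 7.04% those of the interferon-gamma site. Clec4a1, Clec4a3 and Clec5a held none of the 6. A match of letters is a description only.

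Libraries held 14912152 to 21047692 estimated counts in controls and 17390294 to 20760369 with CYR61. Values are CPM (counts relative to the library total, scaled by TMM factors), as mean ± SD over n = 7 control and n = 4 CYR61 libraries. Folds and adjusted p-values are from edgeR's quasi-likelihood test with Benjamini-Hochberg adjustment over the 15135 genes tested, with a threshold of 0.05. Markers placed the cultures as macrophages: Csf1r stood at 2992 ± 96.3 and 3271 ± 57.8 CPM, Lyz2 at 17244 ± 495 and 19563 ± 860.3 CPM. The 8 macrophage markers summed to 22528 to 23876 CPM in controls and 25017 to 27247 CPM with CYR61, and 6 of the 8 rose. The share of ribosomal RNA was 0.26 to 0.884%, apart from CYR61 replicate 4 with 2.47%. The chi-square per gene of that library against the other CYR61 libraries was 19.2 to 33.4. These gave 3.48 to 9.07 among themselves (controls 2.9 to 10.6). The chi-square kept the ribosomal RNA genes, so it includes that difference in share, and it was not computed without them. Without CYR61 replicate 4, 6 of the 10 receptors rose and 1 fell, and Clec4a3 was the call lost.

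CYR61-treated macrophages had more RNA of 7 of the 10 receptors and less of 1, Clec7a, while Clec12a and Clec5a did not pass. All 10 were tested. The Mincle and Dectin-2 genes Clec4e and Clec4n stood at 2.29 and 2.19 times control, Clec4a1 and Clec2d at 1.47 and 1.397 times, and Clec4a2, Clec4a3 and Clec4d at 1.28, 1.21 and 1.11 times. Among all genes tested 5.33% rose and 2.63% fell by the same rule (7.96% in either direction). The median log2 fold change of the 10 genes was 0.32, against -0.0076 over all genes tested. In bulk RNA, fewer cells of a type and less RNA per cell cannot be told apart. All 4 CYR61 libraries lay above all 7 controls for 5 of the 10 genes, and below all controls for 0. Over all genes tested, 4.65% lay wholly above and 2.5% wholly below (7.16% in either direction). The authors' deposited table lists the same sign for each of the 10 genes, with log2 fold changes such as 1.18 for Clec4n, 0.604 for Clec4a1 and -0.227 for Clec7a.

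**Figure D1:**
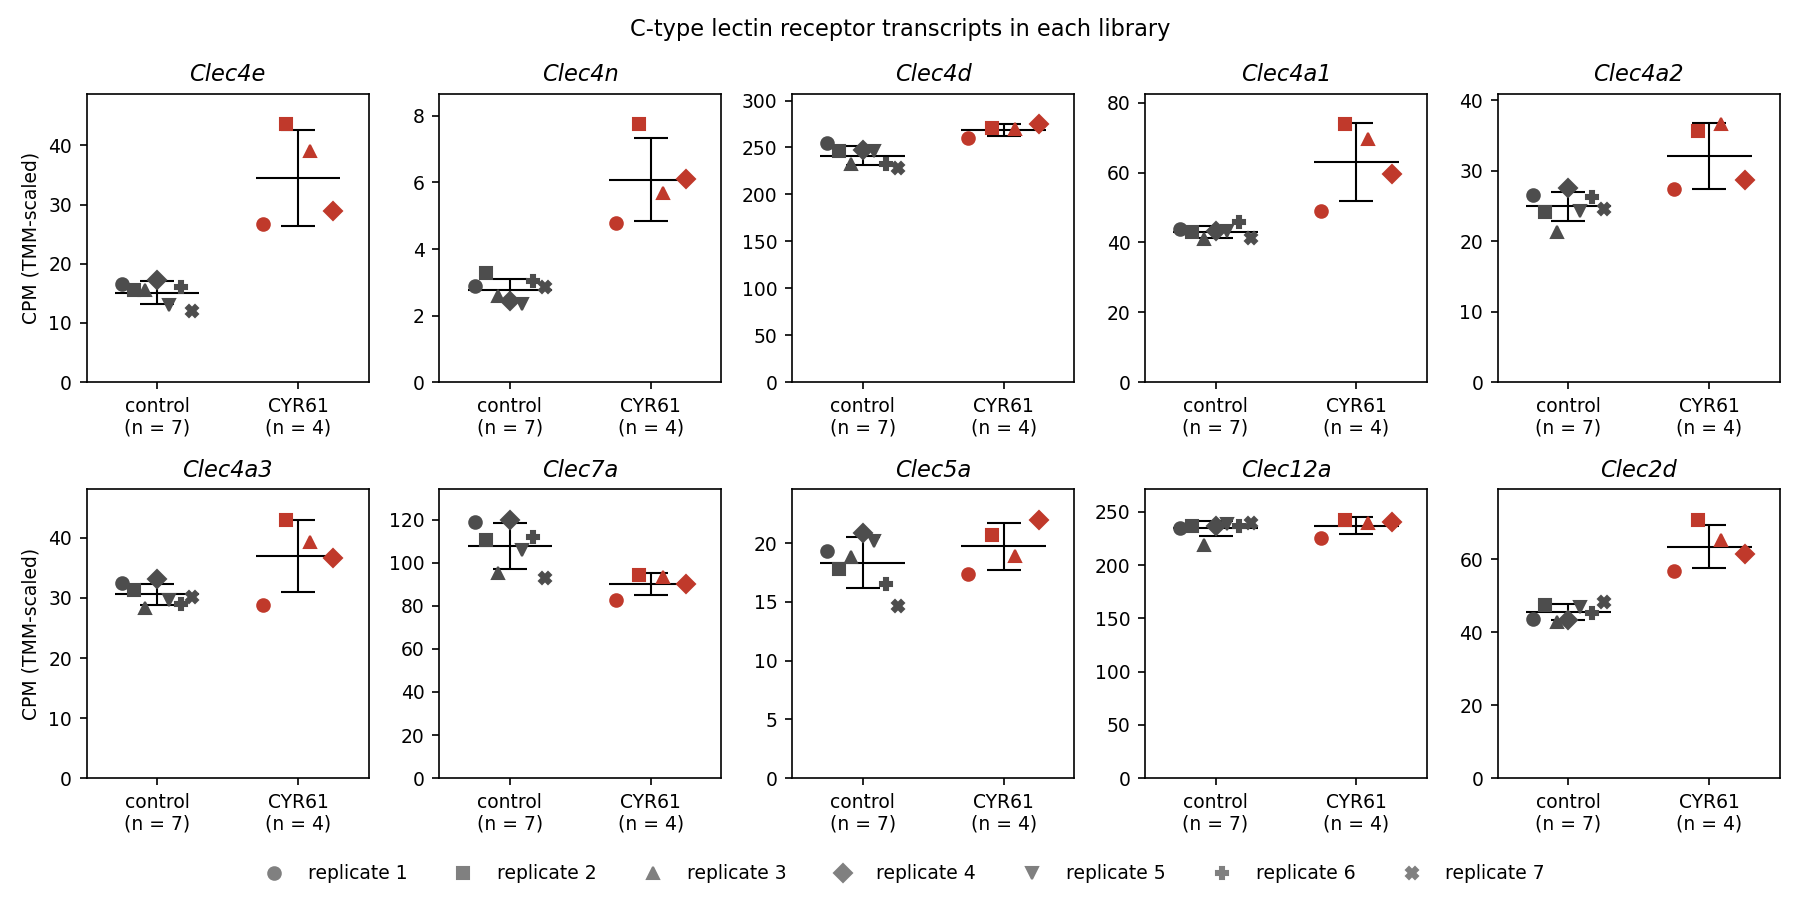
CPM (TMM-scaled, linear axis from 0) of each receptor transcript in the 7 control (grey) and 4 CYR61 (red) libraries; each symbol is 1 library, its shape the replicate number, and lines give the mean and SD. The CYR61 libraries of Clec4e sit between 26.7 and 43.5 CPM, all above the control libraries, while those of Clec12a sit among or just above the controls.

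Of the receptors that use the Fc receptor gamma chain, Clec4e ran from 12 to 17.3 CPM in controls, with a median of 15.6. With CYR61 it was measured at 26.7, 43.5, 39.1 and 28.9 CPM in replicates 1 to 4. Every CYR61 library was above every control, and the CYR61 libraries were also the more scattered (coefficient of variation 23.4% against 12.8%). The mean went from 15.1 ± 1.94 to 34.5 ± 8.08 CPM, a log2 fold change of 1.19 with a standard error of 0.12 (edgeR, adjusted p = 5.01e-06). Clec4n was the lowest of the 10 genes, with 44 to 65 counts per control library and 86 to 157 per CYR61 library. Its controls lay at 2.36 to 3.27 CPM (median 2.87) and its CYR61 libraries at 4.77, 7.74, 5.69 and 6.11 CPM. Here too the groups did not overlap, and the log2 fold change was 1.13 with a standard error of 0.13 (edgeR, adjusted p = 2.40e-05). Clec4d, the partner of Clec4e, was by contrast abundant and moved little. Its controls lay at 228 to 255 CPM (median 247) and its CYR61 libraries at 260.1, 270.3, 269 and 275 CPM. The groups were separate but close, and the log2 fold change was 0.16 with a standard error of 0.035 (edgeR, adjusted p = 0.0078). That call was lost when counts were scaled by library totals alone (log2 fold change 0.11, adjusted p = 0.06).

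Clec4n, Clec4d and Clec4e are neighbours in the genome, and the middle gene of the 3 changed least. The ratio of 2 transcripts within a library does not depend on how libraries are scaled. Clec4e stood at 0.0625 counts per count of Clec4d in controls and at 0.126 with CYR61. This shift of the log2 ratio by 1.01 separated the groups, at -4.25 to -3.84 in controls and -3.28 to -2.63 with CYR61 (two-sided exact permutation test over all 330 assignments of 11 libraries to the groups, p = 0.00303, the smallest it can give, adjusted over 45 pairs p = 0.00505). The log2 ratio of Clec4d to Clec4n fell by 0.95, again with separate groups (exact permutation test, adjusted p = 0.00505). No difference in change was detected between Clec4e and Clec4n, whose log2 ratio was 2.43 ± 0.242 in controls and 2.49 ± 0.22 with CYR61 (difference 0.061, exact permutation test, adjusted p = 0.685).

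**Figure D2:**
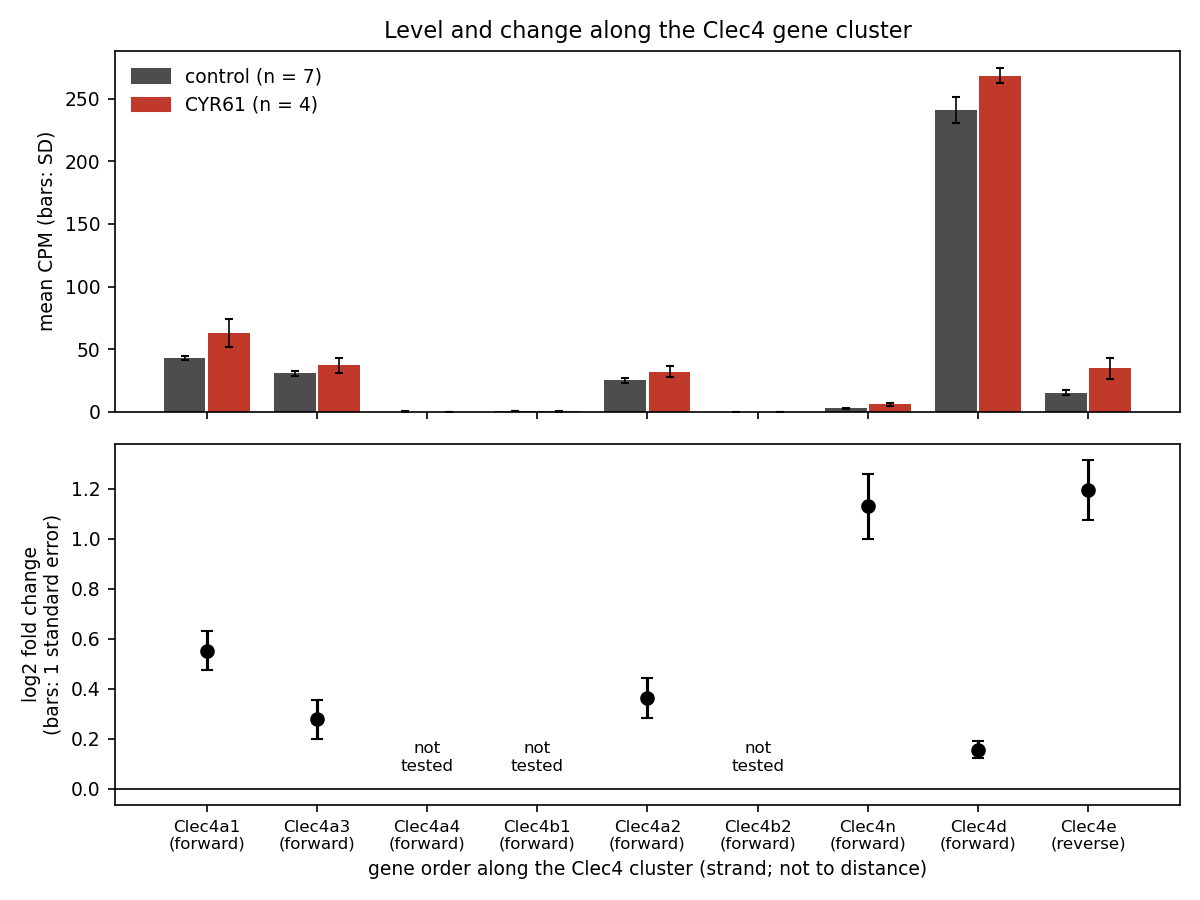
Coding genes of the Clec4 cluster in genome order (evenly spaced, not to distance). Top, mean CPM with SD bars in control (grey, n = 7) and CYR61 (red, n = 4) libraries on a linear axis from 0; bottom, log2 fold change with 1 standard error for the tested genes. Clec4d has the tallest bars (241 and 269 CPM) and a log2 fold change of 0.16, between its neighbours Clec4n (1.13) and Clec4e (1.19).

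The DCIR group followed with smaller rises. Clec4a1 lay at 40.8 to 46 CPM in controls (median 43.2) and at 49, 73.8, 69.7 and 59.7 CPM with CYR61, with no overlap. Its log2 fold change was 0.55 with a standard error of 0.077 (edgeR, adjusted p = 0.000144). Clec4a2, the inhibitory DCIR, lay at 21.3 to 27.6 CPM in controls (median 24.6) and at 27.4, 35.7, 36.6 and 28.7 CPM with CYR61. CYR61 replicate 1 fell just inside the control range and the other 3 libraries lay above it (log2 fold change 0.36, edgeR adjusted p = 0.00736). Clec4a3 lay at 28.3 to 33.2 CPM in controls (median 30.1) and at 28.9, 42.9, 39.4 and 36.7 CPM with CYR61, and again only replicate 1 was inside the control range. Its log2 fold change was 0.28 (edgeR, adjusted p = 0.0351), and this call was the least stable of the 10. It was lost in 11 of 21 alternative fits, limma-voom among them (adjusted p = 0.0548). Leaving out any of controls 2, 3, 5 and 6, or any of CYR61 replicates 2, 3 and 4, also ended it, and adjusted p ran from 0.000379 to 0.184 over the 21 fits (edgeR, limma-voom and DESeq2). Clec4a1 rose more than Clec4a3, since the log2 ratio of the pair moved from 0.49 to 0.77 with separate groups (exact permutation test, adjusted p = 0.00505), and more than Clec4a2 (0.79 to 0.97, adjusted p = 0.0234, exact permutation test). Between Clec4a2 and Clec4a3 the shift of 0.093 did not pass (exact permutation test, adjusted p = 0.242). These genes are close relatives, and a processed pseudogene, Gm44132, overlaps Clec4a2 on the same strand in GENCODE M21, so their values are uncertain where reads could be shared. The counts of Clec4a1 and Clec4a3 were whole in every library and those of Clec4a2 nearly so (562.99 in control 6), and sharing of reads was not tested.

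Clec2d, the natural killer receptor ligand, had one of the lowest p-values of the 10 genes. It lay at 42.8 to 48.3 CPM in controls (median 45.4) and at 56.7, 70.6, 65.2 and 61.4 CPM with CYR61, without overlap. The mean went from 45.4 ± 2.22 to 63.5 ± 5.91 CPM, a log2 fold change of 0.48 with a standard error of 0.052 (edgeR, adjusted p = 9.86e-06). Its log2 ratio to Clec4a1 was -0.078 in controls and -0.022 with CYR61 when written as Clec4a1 over Clec2d, a difference of 0.055 that did not pass (exact permutation test, adjusted p = 0.45). Klrb1b, the gene of its receptor, had 0 counts in all libraries. A count of 0 allows up to 3 counts, which is 0.14 to 0.197 CPM by library, and such limits cover counting error only.

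Clec7a, the Dectin-1 gene, was the one receptor that fell. Its controls lay at 92.7 to 119.6 CPM (median 110.5) and its CYR61 libraries at 82.6, 94.4, 93.2 and 90.3 CPM. Control 7, at 92.7 CPM, fell within the CYR61 range, so the groups overlapped. The mean went from 107.8 ± 10.7 to 90.1 ± 5.31 CPM, 0.837 times control, with a log2 fold change of -0.26 and a standard error of 0.064 (edgeR, adjusted p = 0.0168). Without CYR61 replicate 1 the log2 fold change was -0.22 and no longer passed (edgeR, adjusted p = 0.0617). The deposited table classes Clec7a as a polymorphic pseudogene. Relative to Clec12a, which did not pass, the log2 ratio of Clec7a ran from -1.37 to -0.98 in controls and from -1.45 to -1.36 with CYR61, with overlapping groups (exact permutation test, adjusted p = 0.0213). The log2 ratio of Clec4d to Clec7a, which adds the rise of Clec4d to the fall of Clec7a, ran from 1.05 to 1.296 in controls and from 1.52 to 1.65 with CYR61 (exact permutation test, adjusted p = 0.00505).

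Clec12a and Clec5a did not pass. The inhibitory receptor gene Clec12a was among the most even of the 10, at 219 to 239 CPM in controls (median 237) and at 225, 242, 239.8 and 241 CPM with CYR61. Its log2 fold change was 0.015, with a normal-approximation interval from -0.048 to 0.078 (edgeR, adjusted p = 0.851), and its sign turned with scaling by library totals alone (-0.03) and without control replicate 3 (-0.00079). Clec5a lay at 14.7 to 20.9 CPM in controls (median 18.8) and at 17.4, 20.7, 18.9 and 21.9 CPM with CYR61, with overlapping groups. Its interval was wider, from -0.058 to 0.28 around 0.11 on the log2 scale (edgeR, adjusted p = 0.524).

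**Figure D3:**
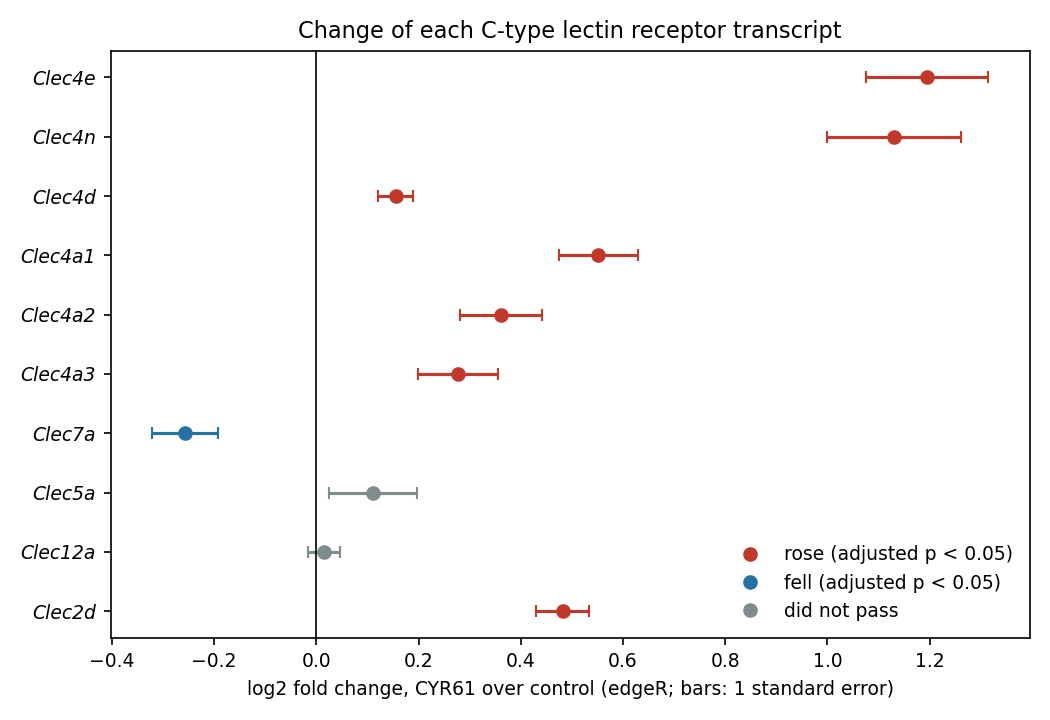
Log2 fold change of each receptor transcript, CYR61 over control, with bars of 1 standard error from the edgeR fit; red rose, blue fell and grey did not pass. Clec4e (1.19) and Clec4n (1.13) stand to the right of the other rises, which lie between 0.16 and 0.55, and Clec7a (-0.26) is the one point left of 0 that passed.

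In pairwise comparisons the receptors changed by unequal amounts. Of the 45 pairs, 35 differed in their change and 10 did not pass (exact permutation tests, adjusted over the 45 pairs). In 29 pairs the log2 ratios of the groups did not overlap. The pairs are built from the same 10 genes and are not independent. The share among pairs of other genes was not computed. The widest shift was between Clec4e and Clec7a, whose log2 ratio moved by 1.42, from 0.14 to 0.376 counts of Clec4e per count of Clec7a (exact permutation test, adjusted p = 0.00505). Clec4e and Clec4n each shifted against all 8 other receptors.

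**Figure D4:**
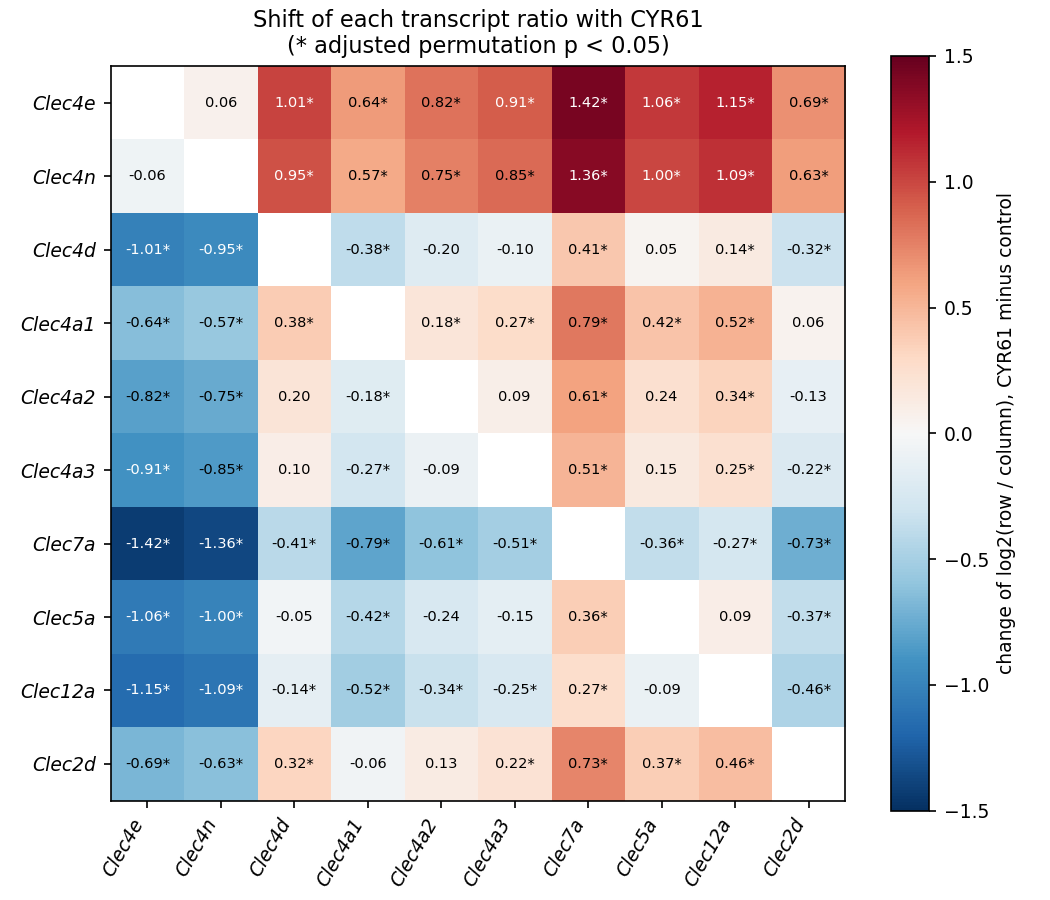
Change with CYR61 of the log2 ratio of the row gene to the column gene (colour scale from -1.5 to 1.5), with an asterisk where the exact permutation test passed after adjustment over 45 pairs. The rows of Clec4e and Clec4n are red throughout except where they meet each other (0.06), and the row of Clec7a is blue throughout.

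The CYR61 libraries kept much the same order across the receptors. CYR61 replicate 1 was the lowest of the 4 in all 10 genes, the falling Clec7a included, and replicate 2 was the highest in 7. Over all genes tested, replicate 1 was the lowest in 30.8% and replicate 2 the highest in 22.1%. Without replicate 1 the log2 fold changes were larger for the rises, at 1.30 for Clec4e, 0.66 for Clec4a1, 0.43 for Clec4a2 and 0.38 for Clec4a3, and smaller for the fall of Clec7a, given above. Among controls, replicate 3 was the lowest in 5 genes and replicate 7 in 4, beside 13.3% and 16.4% of all genes tested. Control replicate 4 was the highest in 5, beside 14.1% of all genes.

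Across genes, levels can be compared only per transcript length, here as TPM, in which counts are divided by the length of the longest GENCODE M21 transcript of each gene and scaled to a fixed total. In controls, Clec4d was the highest at 259 ± 16 TPM, followed by Clec12a at 103 ± 5.64, Clec7a at 67.2 ± 7.77, Clec2d at 53.1 ± 3.42, Clec4a1 at 39.2 ± 2.59 and Clec4a3 at 33.3 ± 2.32 TPM. Clec4a2 stood at 14.3 ± 1.45, Clec5a at 6.93 ± 0.858, Clec4e at 4.46 ± 0.574 and Clec4n at 2.81 ± 0.35 TPM. Among neighbours in this order, the control ranges of Clec7a and Clec2d overlapped, as did those of Clec4a1 and Clec4a3, and the others were separate. With CYR61 the order changed in 3 places: Clec2d (71.1 ± 4.82 TPM) and Clec4a1 (54.9 ± 8.33) now stood above Clec7a (53.8 ± 2.57), the latter within the spread, and Clec4e (9.73 ± 1.98) above Clec5a (7.17 ± 0.795), with overlapping ranges. With the mean transcript length in place of the longest, Clec4e again stood above Clec5a with CYR61 (16.3 and 11.5 TPM), whereas Clec2d (53.2) and Clec4a1 (41.1) stayed below Clec7a (62.1 TPM).

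Genes through which these receptors signal were read from the same fit. Of 32 adaptor, kinase, phosphatase and NF-kB genes, all tested, 6 rose, 1 fell and 25 did not pass, with a median log2 fold change of 0.027. Over all 15135 genes tested, 5.33% rose, 2.63% fell and 13931 genes did not pass. The share that rose was thus larger among the 32 genes than among all genes, and the list was not tested as a set. The shared adaptor chains did not pass: Fcer1g stood at 505 ± 16.2 and 503 ± 37.2 CPM (adjusted p = 0.966) and Tyrobp at 470.4 ± 20.9 and 479 ± 7.07 CPM (adjusted p = 0.726, edgeR), and the sign of each depended on the fit. Card9 was at 61 ± 2.65 and 65.4 ± 6.04 CPM and did not pass either (edgeR, adjusted p = 0.263). Among the Src family kinases, which phosphorylate the receptor motifs, Fgr rose from 16.6 ± 1.22 to 27.5 ± 3.52 CPM (log2 fold change 0.73) and Src from 4.06 ± 0.553 to 5.69 ± 0.647 CPM. For both kinases the CYR61 libraries lay above all controls, with adjusted p = 5.42e-06 for Fgr and 0.0119 for Src (edgeR). The call of Src was lost in 3 of 21 alternative fits, among them that without CYR61 replicates 1 and 4 together (highest adjusted p = 0.144). Ptpn6, the SHP-1 phosphatase used by inhibitory receptors, rose from 254 ± 8.15 to 282 ± 4.68 CPM (edgeR, adjusted p = 0.00343), and the NF-kB subunit gene Relb from 27.7 ± 1.7 to 32.1 ± 2.3 CPM (adjusted p = 0.0227, edgeR), a call lost in 5 of 21 alternative fits, among them library totals alone (adjusted p = 0.0735) and those without CYR61 replicate 2 (adjusted p = 0.113) or 3 (adjusted p = 0.0836). Syk rose from 375 ± 5.63 to 402 ± 12.5 CPM (edgeR, adjusted p = 0.0361), a call lost in 12 of 21 alternative fits (highest adjusted p = 0.275). Leaving out any of controls 1, 3, 4 and 5, or any of CYR61 replicates 1, 2 and 3, was enough to lose it. Cblb, a ubiquitin ligase that limits signalling by these receptors, was the gene that fell, from 126 ± 4.45 to 109.9 ± 4.08 CPM (edgeR, adjusted p = 0.000966).

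**Figure D5:**
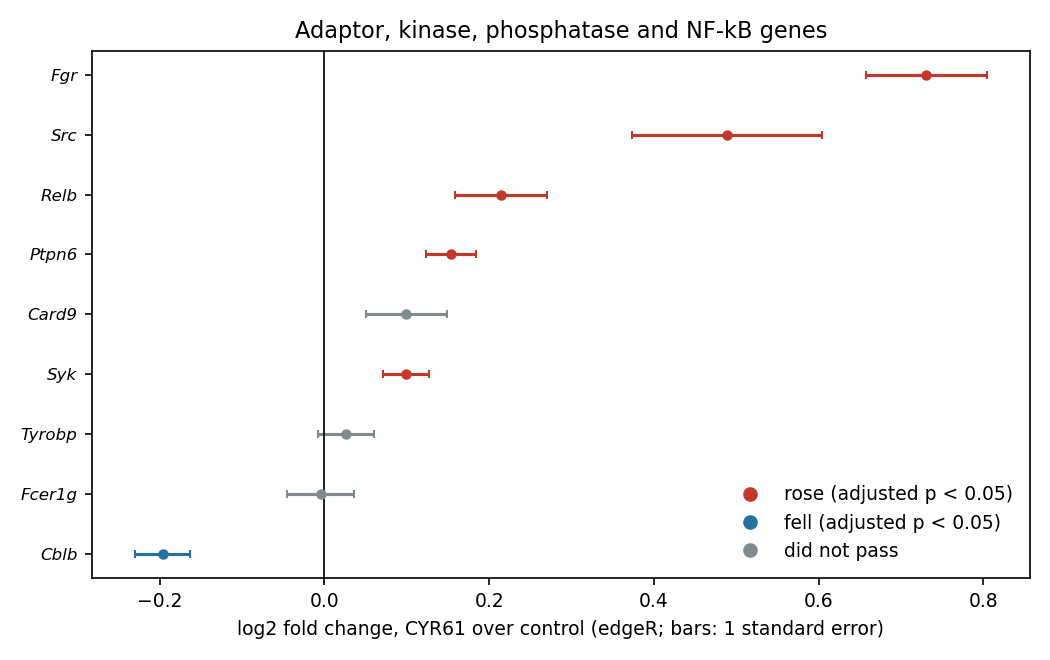
Log2 fold change, CYR61 over control, of the signalling genes named in the text, ordered by value, with bars of 1 standard error from the edgeR fit; red rose, blue fell and grey did not pass. Fgr (0.73) is the point farthest from 0, Cblb (-0.2) the lowest, and Fcer1g and Tyrobp lie at 0 within their error.

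Of 48 other genes with a C-type lectin-like domain or known as partners of Clec2d, 13 were tested, of which 3 rose and 0 fell (edgeR; 2 were lower at an unadjusted p under 0.05, and DESeq2 and limma-voom also gave 0), beside 5.33% and 2.63% of all genes tested. Cd302, a lectin receptor of phagocytes, rose from 45.5 ± 1.23 to 61.7 ± 5.94 CPM (edgeR, adjusted p = 1.33e-05) and Cd72, an inhibitory receptor, from 139 ± 12.4 to 167 ± 13.4 CPM (edgeR, adjusted p = 0.0107). Both had CYR61 libraries above all controls, and Cd72 did not pass without CYR61 replicates 1 and 4 together (adjusted p = 0.22, edgeR). The mannose receptor gene Mrc1 rose from 262 ± 35.7 to 337 ± 56.2 CPM with overlapping groups (edgeR, adjusted p = 0.0326). Its call was lost with DESeq2, with library totals alone, and on leaving out any of controls 2, 3 and 4 or of CYR61 replicates 2 and 3 (highest adjusted p = 0.14).

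For each receptor that passed, the genes of most similar profile were sought among 13340 other genes, by the root mean square distance between log2 CPM standardised over the 11 libraries, a description that includes the group difference. Standardising removes the size of a change, so a near gene may have changed by more or by less than its receptor. Acod1 stood at 3.13 times control beside 2.29 for Clec4e, and Gngt2 at 1.27 times beside 2.19 for Clec4n. Closest to Clec4e were the itaconate enzyme gene Acod1 and the cytokine signalling inhibitor gene Socs3, at distances of 0.147 and 0.197 SD. Closest to Clec2d was Il2rg, the shared gamma chain of interleukin receptors (0.148 SD). Clec4a1 was followed most closely by the transferrin receptor gene Tfrc (0.162 SD) and the cytokine receptor gene Csf2rb (0.181 SD), Clec4n by Gngt2 (0.18 SD) and Btbd11 (0.194 SD), and Clec4d by the proteases Sppl2a (0.152 SD) and Adam17 (0.25 SD). The nearest genes were farther for Clec4a2 (Nadk at 0.304 and Ier3 at 0.322 SD), Clec4a3 (Lman1 at 0.276 and Cept1 at 0.339 SD) and Clec7a (mt-Nd6 at 0.299 and Mmp12 at 0.354 SD).

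Other marrow cells carry many of these receptors, so their markers were set beside the results. Of 9 neutrophil markers Ly6g was at 0 in every library, and the list summed to 0.841 to 1.39 CPM in controls and 1.66 to 2.12 CPM with CYR61 (exact permutation test, p = 0.00303, adjusted over 9 lists p = 0.0136). Most of that was S100a8, at 0.97 ± 0.264 and 1.69 ± 0.153 CPM, while S100a9 had at most 2 counts. Dendritic cell markers (7 genes) summed to 1.47 to 2.41 and 1.33 to 2.05 CPM, and T and natural killer cell markers (7 genes, of which Cd3e, Cd3g, Ncr1 and Nkg7 were at 0) to 0.214 to 0.951 and 0.554 to 1.33 CPM. B cell markers (4 genes, Pax5 among those at 0) summed to 0.161 to 0.37 and 0.218 to 0.293 CPM, mast cell and basophil markers (5 genes, Mcpt4 at 0) to at most 0.218 CPM in any library, and stromal markers (5 genes) to 0.545 to 1.64 and 0.822 to 1.63 CPM. Monocyte markers (5 genes, Plac8 at 0) summed to 84.1 to 97.3 and 84.3 to 93.8 CPM. Within that list Ly6c2 and Ccr2 rose and Cx3cr1 fell, from 48 ± 4.03 to 34.7 ± 3.99 CPM. Osteoclast markers (5 genes, Calcr at 0) summed to 24.6 to 30.5 and 28.9 to 34.3 CPM, and Acp5 rose among them. Apart from the macrophage list (adjusted p = 0.0136) and the neutrophil list, none passed the exact permutation test, and the part of these cells in the receptor results was not tested.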

How the data were processed

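Libraries were made from total RNA after removal of ribosomal RNA and sequenced as paired reads, per the labels' protocols. DRAGEN is named in the submitters' processing notes; its role and version, the build, the gene models and the strand were not given in the sources used here. As raw data the authors deposited estimated counts (expected counts) per Ensembl gene, not normalized; 88.6 to 89.4% of values per library were whole (exact equality). They also deposited a table of log2 fold changes, log2 CPM, p-values and scores, of which the log2 fold changes were used for comparison. The 287 repeated rows of 55774 were dropped and counts rounded. In R 4.3.3, edgeR 4.0.16 filtered (filterByExpr, 15135 genes), scaled (TMM) and tested CYR61 against control (glmQLFit, glmQLFTest, 11 libraries, no covariates, Benjamini-Hochberg). On simulated counts for 15135 genes the fit recovered 70% of genes given a 1.25-fold change. It recovered 90% of genes changed 1.5-fold and 100% of those changed 2-fold. The simulation used the same spread between libraries for all genes (biological coefficient of variation 5.64%). In the CYR61 libraries the coefficient of variation of the 10 receptors ran from 2.26% (Clec4d) to 23.4% (Clec4e). The rates therefore describe the simulated counts, and recovery at the spread of each real gene was not tested. Recovery of changes smaller than 1.25-fold was not tested either. No 2 libraries of a group were alike within sampling noise (chi-square per gene at least 2.9).

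Members and lists were chosen with earlier results of these data known. The text names all 10 members, up to 6 called genes of lowest p per list with Fcer1g, Tyrobp, Syk, Card9, Ptpn6 and Mrc1, and the 2 nearest profiles (mean of at least 1 CPM) of each called member; Klrb1b, Gm44132 and the marker genes named were chosen after their values were seen, and some genes that the rule or the lists hold are not reported here. Log2 ratios used counts plus 0.5. Profiles used log2 CPM with a prior count of 2. Marker lists covered 9 cell types. Alternatives were DESeq2 1.42.0, limma-voom (limma 3.58.1), other scaling and filters, the replicate number as a block, leaving out libraries, and an adjusted p under 0.01. Transcript lengths came from GENCODE M21 for 99.8% of tested genes.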

Additional observations from a re-analysis of the deposited data

Results flagged for a closer look

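Within-group outliers were sought in 64 groups of values with Dixon's test, for which chance gives about 1 flag in 20 groups. The 3 values flagged are about as many as chance gives. Control replicate 3 had 219 CPM of Clec12a, against 234 to 239 CPM in the other controls. CYR61 replicate 1 had 225 CPM of Clec12a, against 239.8 to 242 CPM in the other CYR61 libraries. Control replicate 7 had 24.1 CPM of Relb, against 27.4 to 28.9 CPM in the other controls.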

How the results depend on the processing

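Clec4e, Clec4n, Clec4a1 and Clec2d passed in all 21 alternative fits, with log2 fold changes of 1.06 to 1.45, 0.99 to 1.28, 0.47 to 0.74 and 0.43 to 0.58. Leaving out each library in turn gave 6 to 7 receptors that rose and 0 to 1 that fell, 4 to 7 signalling genes that rose and 1 to 2 that fell, 2 to 4 other lectin genes that rose, 31 to 35 pairs that differed, and 583 to 903 rises and 205 to 469 falls over all genes. No receptor fell without CYR61 replicates 1 and 4 together or at an adjusted p under 0.01 (0 in each; edgeR; Clec7a was the gene lost). Scaling by library totals alone gave 529 rises and 938 falls over all genes and 3 falls among signalling genes, and a minimum of 1 CPM gave 2 such falls. No pairing by replicate number was seen: same-numbered libraries had correlations of -0.0931 to 0.0292 in their deviations from group means. Of the CYR61 libraries, 0 of 4 correlated best with the control of its number. The labels do not say whether same-numbered libraries share a mouse, and low correlations cannot exclude it. With the replicate number as a block in 8 libraries, 4 receptors rose, and 3 signalling genes rose and 2 fell. The receptor calls lost were Clec4d (adjusted p = 0.0632), Clec4a2 (adjusted p = 0.057) and Clec4a3 (adjusted p = 0.144, edgeR). Src (adjusted p = 0.0907), Relb (adjusted p = 0.0771) and Syk (adjusted p = 0.13) were lost too (edgeR). The same 8 libraries without the block gave 6 receptors and 3 signalling genes that rose. Clec4a3 (adjusted p = 0.133), Src (adjusted p = 0.0873), Relb (adjusted p = 0.0749) and Syk (adjusted p = 0.109) were lost there (edgeR). Signs turned for values that passed in no fit: Clec12a (-0.030 with library totals alone; -0.00079 without control replicate 3 to 0.040 without CYR61 replicate 1), Tyrobp (-0.018 with library totals alone) and the Clec4e to Clec4n log2 ratio (-0.0023 without control replicate 7; -0.032 to 0.147 over single libraries left out, the extremes being CYR61 replicates 3 and 4). Fcer1g turned to 0.00055 without a filter, 0.014 with the replicate block, 0.016 in the same 8 libraries unpaired, 0.004 and 0.006 without control replicate 2 and 7, 0.048 without CYR61 replicate 1 (-0.029 without CYR61 replicate 2) and 0.061 without CYR61 replicates 1 and 4. The cause was not tested. Mean transcript lengths changed control levels to 140.5 (Clec12a), 77.3 (Clec7a), 39.7 (Clec2d), 29.3 (Clec4a1), 23.7 (Clec4a2), 11.1 (Clec5a) and 7.43 TPM (Clec4e), and placed Clec4a3 above Clec4a1. Clec4n, at 44 to 157 counts per library, is the receptor most limited by depth.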

Other observations

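Of the 48 other lectin receptor genes, 35 did not reach the filter (highest count in any library 18), and 10 of these had no count at all. They include genes that stand between the receptors of the Clec4 cluster: Clec4b1 was measured at 0.363 ± 0.112 and 0.37 ± 0.216 CPM, Clec4a4 at 0.126 ± 0.128 and 0.0535 ± 0.0447 CPM, and Clec4b2 had at most 1 count in a library. Of the 4 lectin genes between Clec12a and Clec7a, Clec12b had at most 6 counts, Clec9a at most 5 and Clec1a at most 18. Clec1b, with at most 15, reached the filter and did not pass (edgeR, adjusted p = 0.24). These genes were picked after their values were seen.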
